A study of Homo sapiens with 6 samples.

Results

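The machinery that carries a cell out of G1 was examined through 10 genes, namely the D-type cyclins CCND1, CCND2 and CCND3, their kinases CDK4 and CDK6, the CDK inhibitors CDKN1B, CDKN1C, CDKN2A and CDKN2B, and the retinoblastoma gene RB1. They were chosen by name, each is 1 gene of the count table, and together they are 10 of its 58735 genes. The 10 genes, and the lists of further genes below, were chosen with earlier results of these data known. The RNA-Seq libraries came from MCF10A, a nonmalignant mammary epithelial cell line that is long established and is grown with horse serum, EGF, insulin, hydrocortisone and cholera toxin. Cells received siRNA against DAB2IP, a Ras GTPase-activating protein (siDAB2IP), or a nontargeting control pool (siControl), and RNA was collected 48 hours later from 3 libraries of each group. All 6 libraries come from this 1 line, and 1 siRNA reagent against DAB2IP was used. The labels do not say whether replicates were separate cultures, so the p-values below measure the spread between these libraries, which may be technical.

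D-type cyclins are made in response to growth factors, and they bind and activate CDK4 or CDK6. The active pairs phosphorylate the retinoblastoma protein, which releases E2F factors and lets the genes of DNA replication be transcribed. Inhibitors of the INK4 family, such as p16 (CDKN2A) and p15 (CDKN2B), block CDK4 and CDK6, whereas those of the CIP/KIP family, such as p27 (CDKN1B) and p57 (CDKN1C), act on cyclin-CDK complexes more broadly. Cyclin D1 is needed for development of the mammary gland in pregnancy, and its gene is often amplified in breast cancer.

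Libraries held between 16353783 and 21916062 counts, so that 3 counts, the limit that a count of 0 allows, corresponded to 0.137 to 0.183 CPM by library total alone. The CPM values below (counts scaled to library size) are also scaled by the TMM method of edgeR. Of the 10 mammary epithelial markers, such as KRT5 and TP63, all had at least 100 counts in each library. KRT5, KRT6A, KRT14 and KRT17 fell. The other 6, of which 3 had a positive log2 fold change, did not pass the test given below. The list's summed FPKM (fragments scaled by gene length and library total) was 2546 to 3175 in siControl and 1278 to 1669 in siDAB2IP. Fibroblast markers summed to 12.9 to 23.0 and 11.8 to 16.6 FPKM. Of these, COL1A1 was higher in siDAB2IP, whereas DCN and PDGFRB were lower without passing (log2 fold change −0.49 and −0.61). Immune and endothelial markers summed to 1.53 to 2.14 and 1.08 to 1.59 FPKM, with CD3E at 0. Markers of hormone receptor-positive luminal cells summed to 5.80 to 7.61 and 5.99 to 7.24 FPKM, with PGR at 0. FOXA1 was higher in siDAB2IP (log2 fold change 1.05), and GATA3 was lower without passing (−0.45, edgeR adjusted p = 0.0616). The part of these markers in the results below was not tested. The targeted gene was lower in each siDAB2IP library, with DAB2IP at 77.4 to 103 CPM in siControl and 22.4 to 27.5 CPM in siDAB2IP (log2 fold change −1.86 ± 0.13 SE, edgeR adjusted p = 9.71e-05).

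CCND1 and CCND2 rose, CDK4 and RB1 fell, and CCND3, CDK6, CDKN1B and CDKN1C did not pass the test. These 8 of the 10 genes passed the filter on low counts of edgeR, and CDKN2A and CDKN2B did not. A gene was called changed when its edgeR quasi-likelihood p, adjusted by Benjamini-Hochberg over the 15430 genes tested, was under 0.05. By this rule 14.2% of all tested genes were called, 6.55% as risen and 7.65% as fallen, compared with 2 risen and 2 fallen of the 8. CPM did not overlap between the groups for 5 of the 8, against 35.9% of all tested genes. In a comparison of 3 libraries with 3, an exact two-sided permutation test of 1 gene cannot give a p below 0.1, which is its value for each of these 5. The median log2 fold change of the 8 genes was −0.05, and that of all tested genes was 0.01. In bulk RNA, fewer cells in a phase or state and less RNA per cell cannot be told apart.

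**Figure D1:**
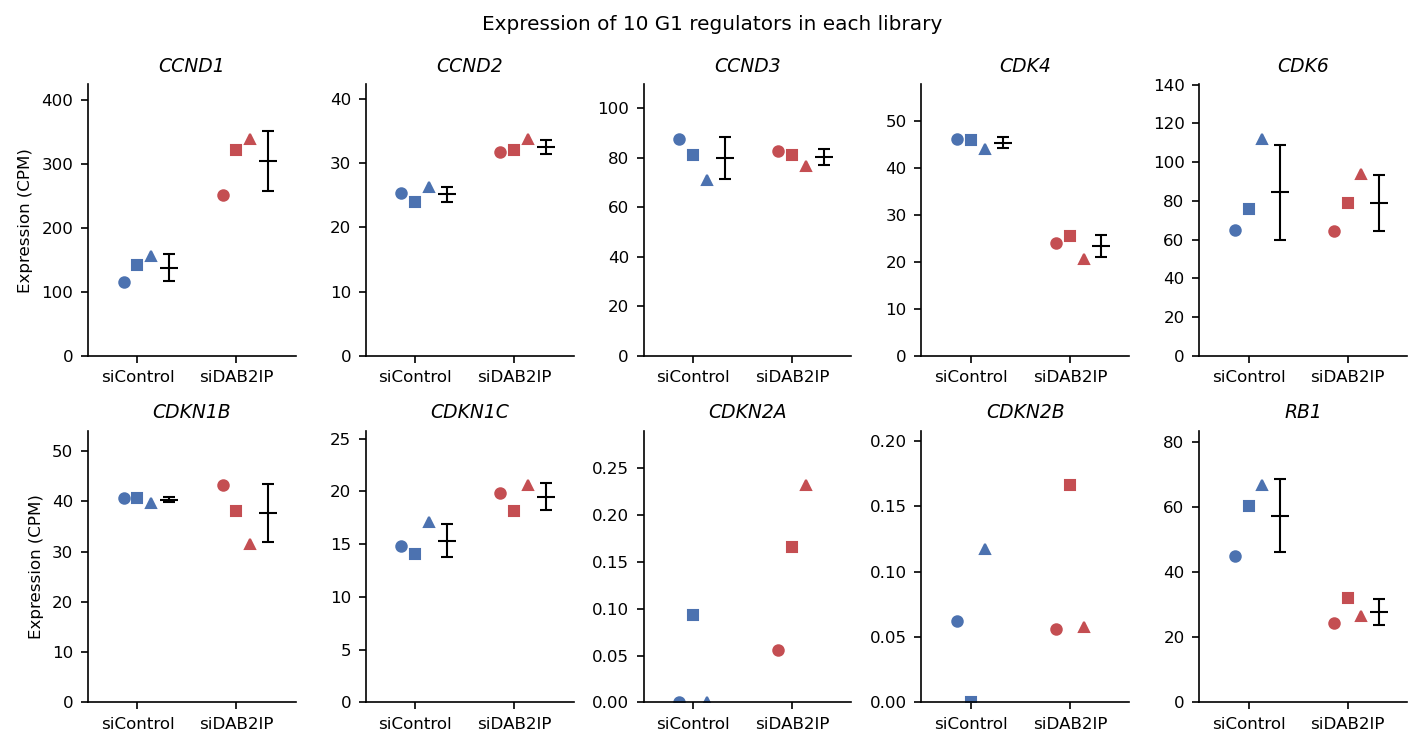
CPM of each of the 10 genes (vertical axes) in the 3 siControl and 3 siDAB2IP libraries, shown as circles, squares and triangles for replicates 1, 2 and 3, with bars for the mean ± SD of the tested genes. The siDAB2IP points of CCND1 (251 to 339 CPM) lie above all siControl points, and those of CDK4 (20.8 to 25.5 CPM) and RB1 (24.5 to 32.2 CPM) lie below.

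CCND1 (ENSG00000110092; GRCh38 chr11:69641087-69654474, plus strand) encodes cyclin D1. It had 115, 141 and 156 CPM in siControl replicates 1, 2 and 3, and 251, 322 and 339 CPM in siDAB2IP replicates 1, 2 and 3. Every siDAB2IP library was above every siControl library, and the lowest value of each group was in replicate 1. The means were 138 ± 20.8 and 304 ± 46.8 CPM (SD, n = 3 each), a 2.21-fold rise (95% confidence interval 1.76 to 2.77; edgeR adjusted p = 0.00183). Between libraries with the same replicate number, the log2 difference was 1.12, 1.19 and 1.12. By p, CCND1 ranked 127 among the genes tested.

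CCND1 shares 497 exon bases, 10.3% of its exons, with LTO1, a gene on the opposite strand. The strand setting of the counting is not given in the sources used here, so reads in the shared bases cannot be assigned with certainty. LTO1 had a log2 fold change of 0.42 (edgeR adjusted p = 0.122). When its counts were added to those of CCND1, the log2 fold change of the sum was 1.03 (edgeR adjusted p = 0.00232).

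CCND2 (ENSG00000118971; chr12:4273772-4305350, plus strand), which encodes cyclin D2, was far less abundant. It had 25.3, 24.0 and 26.2 CPM in siControl and 31.8, 32.0 and 33.8 CPM in siDAB2IP. The groups did not overlap, and the fold change was 1.29 (log2 0.37, 95% confidence interval 0.13 to 0.61; edgeR adjusted p = 0.0439). This call was lost when any 1 of the 6 libraries was left out, with adjusted p between 0.0502 and 0.211. CCND3 (ENSG00000112576; chr6:41934933-42050357, minus strand), which encodes cyclin D3, had 70.9 to 87.7 CPM in siControl and 76.6 to 82.9 CPM in siDAB2IP. These ranges overlapped, with a log2 fold change of 0.00 and a 95% confidence interval of −0.23 to 0.23 (edgeR adjusted p = 0.983).

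Levels of different genes were compared in FPKM, which accounts for gene length but not for reads in exon bases shared with another gene. The length is that of all annotated exons of a gene, which can exceed that of the transcripts present. Orders, shares and ratios of different genes are therefore approximate. The 3 D-type cyclin genes together had 42.1, 46.4 and 47.8 FPKM in siControl and 70.1, 84.2 and 87.1 FPKM in siDAB2IP. CCND1 made up 56.2%, 62.8% and 67.1% of this sum in siControl, and 73.5%, 78.3% and 79.7% in siDAB2IP. All siDAB2IP shares were above all siControl shares. The share of CCND3 was 30.3 ± 5.12% in siControl and 17.2 ± 2.71% in siDAB2IP (SD, n = 3 each). CCND1 was the most abundant cyclin D transcript in both groups.

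**Figure D2:**
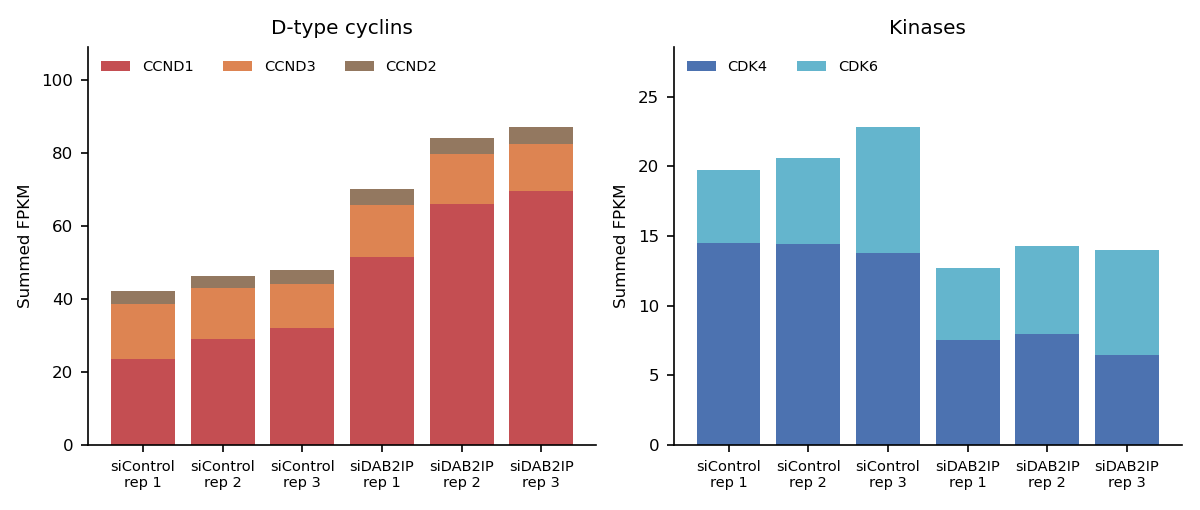
FPKM of the D-type cyclin genes and of CDK4 and CDK6 in each of the 6 libraries, with bars stacked from 0. The cyclin D sum is larger in siDAB2IP (70.1 to 87.1 FPKM, compared with 42.1 to 47.8 FPKM) and the kinase sum is smaller (13.7 ± 0.859 FPKM, compared with 21.1 ± 1.62 FPKM; SD, n = 3).

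CDK4 (ENSG00000135446; chr12:57747727-57756013, minus strand) encodes a kinase that D-type cyclins activate, and CDK6 (ENSG00000105810; chr7:92604921-92836594, minus strand) encodes the other. The RefSeq sequences around a start site of each gene (GRCh38.p14, 250 bases before to 50 after, written 5′ to 3′ on the minus strand) are shown because CDK4 fell and CDK6 did not pass the test. Capitals mark the E-box CACGTG, the word bound by MYC and related factors, which reads the same on both strands.
CDK4, chr12:57752261-57752560: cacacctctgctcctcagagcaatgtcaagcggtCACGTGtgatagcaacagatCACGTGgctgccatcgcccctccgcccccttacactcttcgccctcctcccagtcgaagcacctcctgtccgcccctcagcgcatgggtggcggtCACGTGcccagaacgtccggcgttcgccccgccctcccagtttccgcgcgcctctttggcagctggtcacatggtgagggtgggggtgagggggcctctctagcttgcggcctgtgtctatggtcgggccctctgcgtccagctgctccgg
CDK6, chr7:92836524-92836823: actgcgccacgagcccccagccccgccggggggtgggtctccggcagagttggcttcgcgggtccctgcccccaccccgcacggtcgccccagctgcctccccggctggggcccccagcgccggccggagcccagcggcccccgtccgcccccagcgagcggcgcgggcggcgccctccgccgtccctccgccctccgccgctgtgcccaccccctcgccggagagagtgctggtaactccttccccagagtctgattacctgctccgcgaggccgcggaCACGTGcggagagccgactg

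The CDK4 window holds 3 E-boxes, whose first bases are at −216, −196 and −101 from the start site. The CDK6 window holds 1, with its first base at 30, and a further CDK6 window in RefSeq (chr7:92833910-92834209) holds none. Of the 35116 human windows of the same length, 7.26% hold at least 1 CACGTG and 0.0940% hold at least 3. The cut of 3 is the number in the CDK4 window, so its share is only a description. RB1 also fell, and its RefSeq window, which lies inside the gene, holds none. Both printed windows hold 3 GC boxes (GGGCGG on either strand), a word found at least 3 times in 15.8% of all windows. Neither window holds CCAAT or any of the E2F words TTTCGCGC, TTTGGCGC, TTTCCCGC and TTTGCCGC. These matches describe the letters and are not evidence of binding.

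CDK4 had 46.3, 46.0 and 44.2 CPM in siControl and 24.0, 25.5 and 20.8 CPM in siDAB2IP. The groups were far apart relative to their spread, with means of 45.5 ± 1.16 and 23.4 ± 2.44 CPM (SD, n = 3 each). The level in siDAB2IP was 51.5% of that in siControl, a log2 fold change of −0.96 (95% confidence interval −1.21 to −0.71; edgeR adjusted p = 0.00124), and CDK4 ranked 82 by p. CDK4 shares 1369 exon bases, 43.2% of its exons, with TSPAN31 on the opposite strand, and its span, but none of its exons, overlaps MARCH9. TSPAN31 had a log2 fold change of −0.13 (edgeR adjusted p = 0.509) and MARCH9 one of −0.48 (edgeR adjusted p = 0.195). With the counts of both added to CDK4, the log2 fold change was −0.53 (edgeR adjusted p = 0.0142). As MARCH9 shares no exon bases with CDK4, its part of this sum does not bear on the shared reads. How the shared reads were assigned was not tested.

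CDK6 had 65.0, 76.0 and 112 CPM in siControl and 64.4, 78.8 and 93.7 CPM in siDAB2IP. The groups overlapped, and replicate 3 was highest in both. The siControl libraries alone spanned a 1.72-fold range, and the log2 fold change of −0.10 had a 95% confidence interval of −0.54 to 0.34 (edgeR adjusted p = 0.792). CDK4 was 73.4%, 70.1% and 60.4% of the summed CDK4 and CDK6 FPKM in siControl, and 59.0%, 55.6% and 46.2% in siDAB2IP. The ratio of the cyclin D sum to the kinase sum was 2.16 ± 0.0820 in siControl and 5.87 ± 0.349 in siDAB2IP (SD, n = 3 each). This ratio is made of the FPKM values above and adds no independent measurement. The shares and the ratio also carry the uncertainty over reads in the exon bases that CDK4 shares with TSPAN31.

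**Figure D3:**
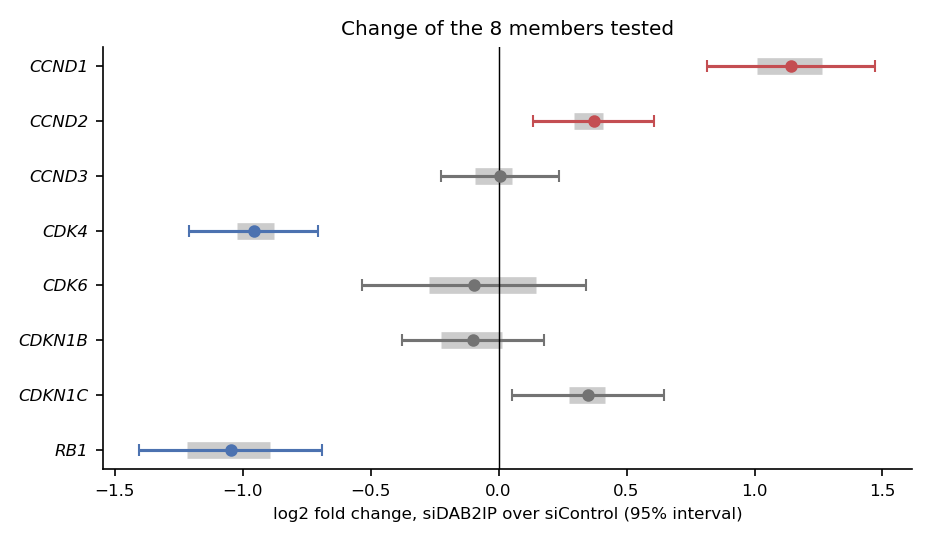
Log2 fold change of siDAB2IP over siControl for the 8 genes tested (horizontal axis), with points for the edgeR estimate, thin bars for its 95% confidence interval and grey bars for the range over the alternative analyses. CCND1 (1.14), CDK4 (−0.96) and RB1 (−1.05) lie away from 0, whereas the intervals of CCND3, CDK6 and CDKN1B span 0.

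The CIP/KIP inhibitors among the 10 genes showed no change past the threshold. CDKN1B (ENSG00000111276; chr12:12715058-12722371, plus strand), which encodes p27, had 40.6, 40.7 and 39.7 CPM in siControl and 43.2, 38.2 and 31.6 CPM in siDAB2IP. The groups overlapped, and the siDAB2IP libraries were more widely spread. The intronic transcript AC008115.3 lies inside CDKN1B on the same strand, had 27 to 39 counts and shares 0 exon bases with it. The log2 fold change of CDKN1B was −0.10 (95% confidence interval −0.38 to 0.18; edgeR adjusted p = 0.644). CDKN1C (ENSG00000129757; chr11:2883213-2885773, minus strand), which encodes p57, had 14.8, 14.1 and 17.1 CPM in siControl and 19.9, 18.1 and 20.6 CPM in siDAB2IP. The siDAB2IP values lay above the siControl values without overlap, but the log2 fold change of 0.35 (95% confidence interval 0.05 to 0.65) did not pass (edgeR adjusted p = 0.110).

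Both INK4 genes among the 10 were near 0. CDKN2A (ENSG00000147889; chr9:21967753-21995301, minus strand) had 0, 2 and 0 counts in siControl and 1, 3 and 4 counts in siDAB2IP. CDKN2B (ENSG00000147883; chr9:22002903-22009363, minus strand) had 1, 0 and 2 counts in siControl and 1, 3 and 1 counts in siDAB2IP. All values were at or near the limit of 3 counts, so a difference between groups was not detectable at this depth and no fold change is given. MCF10A cells are known to lack the CDKN2A locus. Of the genes nearby, MTAP, an enzyme of methionine salvage, had 0 to 2 counts per library and the antisense transcript CDKN2B-AS1 had 0 counts in all 6. KLHL9, at −660 kb from the start of CDKN2A, had 354 to 564 counts, and FOCAD, at −1337 kb, had 367 to 571 counts. Low counts were not confined to the genes next to CDKN2A. On the same side, IFNE (−513 kb) had 2 to 24 counts, HACD4 (−964 kb) 3 to 7 and MLLT3 (−1373 kb) 9 to 29. On the other side, DMRTA1 had 6 to 20 counts and ELAVL2 had 29 to 64 counts. Of the 9 neighbouring genes, 5 were tested in edgeR and 8 in DESeq2, of which 0 passed the threshold and 0 had an unadjusted p under 0.05.

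**Figure D4:**
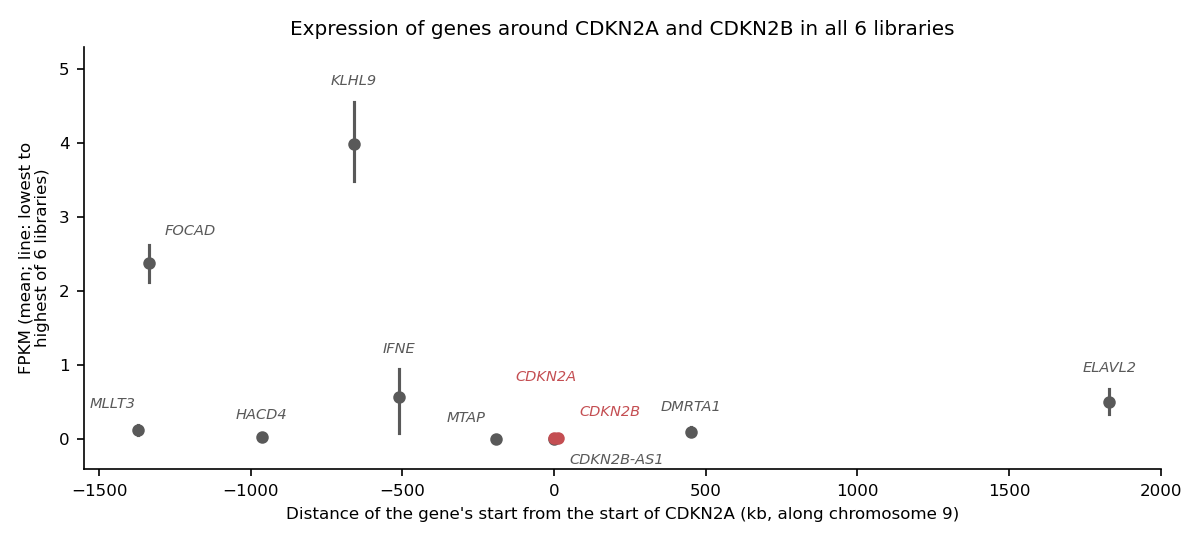
FPKM of CDKN2A, CDKN2B and 9 neighbouring genes (vertical axis) by distance from the start of CDKN2A in kb (horizontal axis), with points for the mean and lines for the range over the 6 libraries. KLHL9 (3.49 to 4.56 FPKM) and FOCAD (2.12 to 2.63 FPKM) stand above MTAP, CDKN2A, CDKN2B and CDKN2B-AS1, which lie at or near 0. HACD4 (mean 0.031 FPKM), MLLT3 (0.13) and IFNE (0.57), which lie further away, are also low.

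RB1 (ENSG00000139687; chr13:48303726-48599436, plus strand) encodes the retinoblastoma protein. It had 45.0, 60.5 and 66.8 CPM in siControl and 24.5, 32.2 and 26.7 CPM in siDAB2IP. The groups did not overlap, and siControl replicate 1 was the lowest control. The means were 57.5 ± 11.2 and 27.8 ± 3.99 CPM (SD, n = 3 each), and the level in siDAB2IP was 48.4% of that in siControl (log2 fold change −1.05, 95% confidence interval −1.40 to −0.69; edgeR adjusted p = 0.00374). Between libraries with the same number, the log2 difference was −0.88, −0.91 and −1.32. LPAR6 and RCBTB2 overlap RB1 on the opposite strand and share 0 exon bases with it. With their counts added, the log2 fold change was −0.71 (edgeR adjusted p = 0.00608). As no exon bases are shared, this sum does not bear on how the exon reads of RB1 were assigned.

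In siControl, the order of levels in mean FPKM was CCND1 (28.3), CDK4 and CDKN1B (both 14.2), CCND3 (13.7), RB1 (8.83), CDK6 (6.82), CDKN1C (6.14) and CCND2 (3.48). In siDAB2IP, CCND1 (62.3) was followed by CCND3 (13.7), CDKN1B (13.3), CDKN1C (7.79), CDK4 (7.31), CDK6 (6.37), CCND2 (4.50) and RB1 (4.26). By FPKM, CDK4 thus moved from the level of CDKN1B and CCND3 to that of CDK6 and CDKN1C. The length used for CDK4 includes the exon bases shared with TSPAN31. Reads in those bases cannot be assigned with certainty, so the place of CDK4 in both orders is uncertain. Neighbours in these orders with close means, such as CDK4, CDKN1B and CCND3 in siControl, were not separated beyond their spread.

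Over the 6 libraries, the log2 CPM of CCND1 was most like that of EIF4G3 (Pearson r = 0.999), KLHL17 (0.997), TMEM187 (0.997), THBD (0.996) and HMGXB3 (0.995), among 9436 genes with a mean of at least 10 CPM. EIF4G3 is a translation initiation factor and THBD is thrombomodulin. Pearson r does not measure the size of a change. KLHL17, TMEM187 and THBD rose 1.31-, 1.75- and 1.72-fold. EIF4G3 (1.19-fold, edgeR adjusted p = 0.0991) and HMGXB3 (1.09-fold, edgeR adjusted p = 0.383) were not called. The 6 points include the difference between the groups, and 236 genes reached r of at least 0.95, so these values are a description without a test.

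The other regulators of G1 were counted from 4 lists of 36 genes, of which all were tested, 2 rose and 8 fell (median log2 fold change −0.16), beside 6.55% and 7.65% of all tested genes. Among the inhibitors, CDKN1A, which encodes p21, had 149, 147 and 148 CPM in siControl and 369, 454 and 739 CPM in siDAB2IP. All siDAB2IP libraries were above the controls, and replicate 3 was the highest (log2 fold change 1.81; edgeR adjusted p = 0.00135). The summed FPKM of CDKN1A, CDKN1B and CDKN1C was 67.9 to 69.0 in siControl and 143 to 259 in siDAB2IP, and CDKN1A made up 70.3 ± 0.402% and 88.0 ± 4.38% of it (SD, n = 3 each). CDKN2C, which encodes the INK4 protein p18, fell (log2 fold change −1.22; edgeR adjusted p = 0.0240), and CDKN2D had −0.13 (edgeR adjusted p = 0.802).

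Of the 12 genes for RB-like proteins, E2F factors and their DP partners, 4 fell and 1 rose. RBL1, the RB relative p107, fell by 1.12 on the log2 scale (edgeR adjusted p = 0.00514), and the activating factors E2F1 and E2F2 fell to 43.4% and 40.4% of siControl (edgeR adjusted p = 0.0128 and 0.0150). The DP partner TFDP1 fell by 0.52 (edgeR adjusted p = 0.00784), whereas E2F4, a factor that acts mainly as a repressor, rose by 0.38 (edgeR adjusted p = 0.0423). RBL2, the RB relative p130, had −0.22 (edgeR adjusted p = 0.150). Of the 13 genes for turnover of cyclins and p27, SKP2, which marks p27 for degradation, fell by 0.82 (edgeR adjusted p = 0.00433), and GSK3B, a kinase that phosphorylates cyclin D1, fell by 0.58 (edgeR adjusted p = 0.00541). Of the 8 genes for cyclin E, CDK2 and their activators, CDK2 alone passed (log2 fold change −0.54; edgeR adjusted p = 0.0473), and CCNE1 had −0.42 (edgeR adjusted p = 0.157). The call of CDK2 was lost on leaving out any library other than siDAB2IP replicate 2 (edgeR adjusted p up to 0.129), and that of E2F4 on leaving out any other than siDAB2IP replicate 1 (up to 0.199). CDKN2C was lost without siControl replicate 2 or 3 or siDAB2IP replicate 1 (0.0688 to 0.0832), and E2F2 without siControl replicate 1 (0.0537). Without both libraries of replicate 1 or of replicate 2, 2 and 1 of the 36 genes fell.

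The next 24 genes, which E2F factors induce at the G1/S transition, were listed with earlier results known, so their counts are a description. Of them, 17 fell and none rose in edgeR, beside 7.65% of all tested genes that fell. All 24 had a negative log2 fold change (median −0.91). Among those with the smallest p were TYMS of nucleotide synthesis (log2 fold change −1.11), the helicase subunit MCM7 (−0.43), RRM1 of ribonucleotide reductase (−0.78), the licensing factor CDT1 (−1.25) and the sliding clamp PCNA (−0.58), with edgeR adjusted p between 0.00604 and 0.0180. Relative to the siControl mean, the median of the 24 genes was −0.79, −0.47 and −1.70 on the log2 scale in siDAB2IP replicates 1, 2 and 3, and 24, 23 and 24 of them were below every siControl library. CPM was without overlap for 23 of these genes, beside 35.9% of all tested genes. Replicate 3, the library with the most CDKN1A, had the lowest median. The order was not kept in the others, as replicate 2 had more CDKN1A than replicate 1 and a less reduced median. A link between CDKN1A and these genes was not tested. In the paper's own assay, MCF10A cells with DAB2IP knockdown proliferated more than controls. How that relates to these RNA levels was not tested. The count that fell was 6, 2 and 3 without siControl replicate 1, 2 or 3, and 7 without siDAB2IP replicate 1, and 0 and 3 without both libraries of replicate 1 or 2, in fits with fewer libraries.

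**Figure D5:**
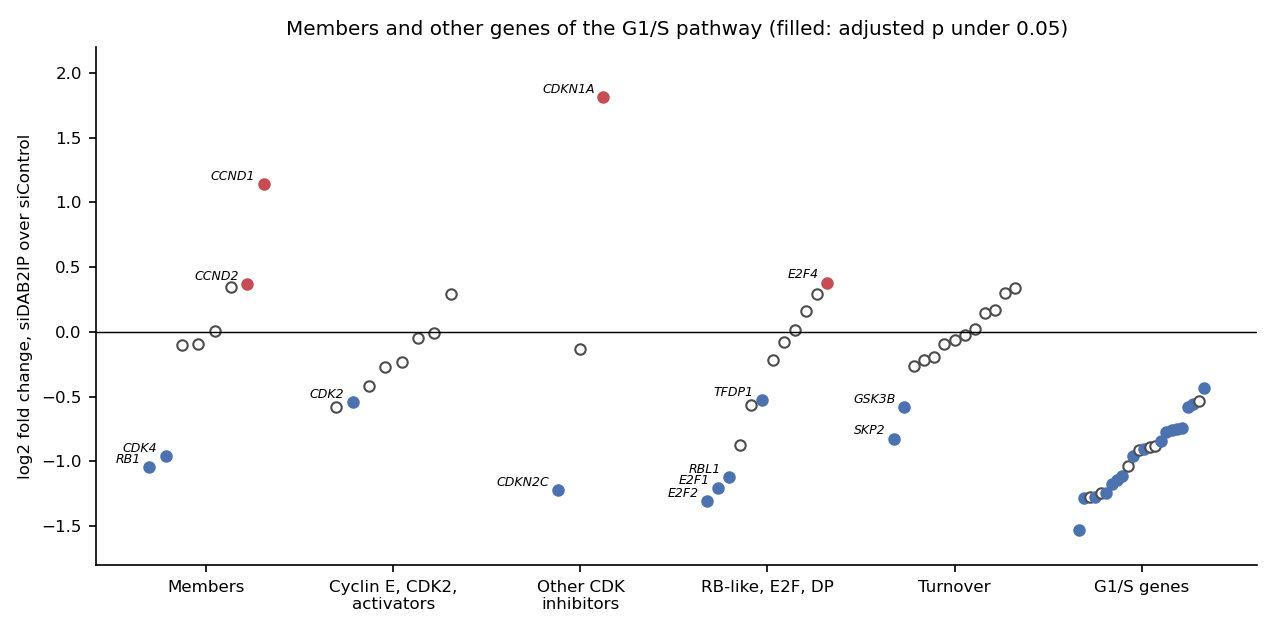
Log2 fold change of siDAB2IP over siControl (vertical axis) of each tested gene, grouped by list, with filled points for edgeR adjusted p under 0.05. The 24 G1/S genes all lie below 0, while the 8 tested genes among the 10 G1 genes lie on both sides, from −1.05 (RB1) to 1.14 (CCND1).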

How the data were processed

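RNA-Seq libraries of 3 siControl and 3 siDAB2IP samples were used, grouped by the labels. The authors deposited counts per gene, which are whole numbers without normalization, and FPKM values, in which the authors scaled each count by gene length and library total. The submitters' processing notes name hg38, STAR 2.6.1d, featureCounts 1.5.0-p3, DESeq2 1.20.0 and edgeR 3.24.3. The strand setting is not given in the sources used here. All 58735 genes have the positions of GENCODE release 29.

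The counts were tested with edgeR 4.0.16 under R 4.3.3 (filterByExpr, minimum count 10 and minimum total 15; TMM; glmQLFit and glmQLFTest; Benjamini-Hochberg adjustment), with the alternatives DESeq2 1.42.0, limma 3.58.1 on log2(FPKM + 1) and log2(FPKM + 0.1), other scalings and filters, a replicate block and left-out libraries. Adding the counts of overlapping genes was chosen after seeing the data. Standard errors were derived from the F statistic. Code was tested on simulated data. The limit of 3 counts covers counting error only.

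The 10 genes and the lists were chosen with earlier results of these data known. Named genes were the 10 genes, DAB2IP, expressed genes overlapping them, genes beside CDKN2A, list genes past the threshold (the 6 of smallest p where there were more) or given as a contrast, and the 5 genes most correlated with CCND1. The values of 1 gene that this rule names are not reported here. RefSeq windows were found for 7 of the 10 genes, not for CCND1, CCND2 and CDKN1C. The only window of RB1 (chr13:48476200-48476499) lies inside the gene and not at the start given above. In the tables the name of MARCH9 had been turned into a date, and it was matched by its identifier.

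Replicates are numbered 1, 2 and 3 in each group by the labels, and library names share a letter within a number. After subtraction of the group means, log2 CPM of same-numbered libraries correlated across genes at 0.26, 0.15 and 0.25, and of others at −0.28 to 0.02. Same-numbered libraries were thus the most alike. The subtraction makes deviations cancel within each group, so part of this contrast is fixed in advance. The reported tests do not use a pairing by number, and the fit with the replicate block is an alternative.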

Additional observations from a re-analysis of the deposited data

How the results depend on the processing

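CCND1 and CDK4 kept their direction and passed the threshold under 18 alternative analyses, with log2 fold changes of 1.01 to 1.26 and −1.02 to −0.88. RB1 passed in 17 (−1.22 to −0.89), and was lost with limma on log2(FPKM + 1) without an FPKM minimum (adjusted p = 0.0637). CCND2 passed in 6. No called gene changed sign. Of the genes without a call, CCND3 was negative without a filter (−0.0071) or with at least 10 counts in every library (−0.0079), and on leaving out libraries it ranged from −0.091 to 0.053, CDK6 from −0.27 to 0.15, CDKN1B from −0.22 to 0.012 and AC008115.3 from −0.23 to 0.14. With the replicate block, 3233 genes changed instead of 2192, 21 instead of 17 G1/S genes and 10 instead of 8 other G1 regulators fell, and no call of the 8 tested genes among the 10 changed. With limma on log2(FPKM + 0.1) and genes of mean FPKM of at least 1, 1417 genes changed, 10 G1/S genes fell and 1 of the other G1 regulators rose. Limma on log2(FPKM + 1) without that minimum gave 378 changed genes. In that fit 1 of the 10 genes rose and 1 fell, 1 other regulator rose and 3 fell, and 1 G1/S gene fell. With the minimum it gave 1 riser among the 10 genes and 1 among the other regulators, and no filter on low counts gave 1 riser among the 10 genes. On leaving out 1 library or both of a number, 235 to 2524 genes changed, 1 of the 10 genes rose, 1 to 2 other regulators rose and 1 to 8 fell, and 0 to 22 G1/S genes fell. The lowest, 0, came in edgeR without both libraries of replicate 1, where 21 of the 24 had a negative change with an unadjusted p under 0.05. At 3 libraries a group, smaller differences may be missed, and counts near 3 allow no comparison.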
